A study of Mus musculus with 27 samples.

Results

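The proteasome subunits that every cell carries were followed in the livers of 27 mice, from 3 groups that the labels name Dex, Veh and Con. Members were all probe sets whose only annotated gene symbol begins with Psma, Psmb, Psmc or Psmd and a digit, without the immunoproteasome genes Psmb8, Psmb9 and Psmb10. This gave 45 of the 12488 probe sets of the array, for 35 genes. Each group held 9 mice, and each Affymetrix array measured the total RNA of 1 liver. Beyond the tissue and the handling of the RNA, the labels give the group names alone. The agents, doses, times, strain, sex and age therefore stand unknown here, and no allele or treatment shared by the groups is named. The names were used as written. Whether litters, cages or days were shared is not stated either, and the p-values measure the spread between these mice.

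The proteasome is the barrel-shaped protease that breaks down proteins tagged with ubiquitin. Its 20S core stacks rings of alpha subunits (Psma genes), which gate the entrance, around rings of beta subunits (Psmb genes), of which Psmb5, Psmb6 and Psmb7 carry the cutting sites. The 19S particle caps the core: its base holds the ATPases that unfold substrates (Psmc genes) and ubiquitin-binding or scaffold subunits, and its lid holds Psmd14, which removes the ubiquitin chain. Under interferon, Psmb8, Psmb9 and Psmb10 take the place of Psmb5, Psmb6 and Psmb7, which makes the immunoproteasome. The factor Nfe2l1 is known to raise the transcription of the constitutive subunits together when proteasome activity falls short.

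By role, the 35 genes were 7 alpha subunits, 7 beta subunits, 6 ATPases of the 19S base, 3 further base subunits, 8 lid subunits, 3 assembly chaperones (Psmd5, Psmd9 and Psmd10, which help to build the base and are no part of the finished particle) and Psmc3ip. The last fits the naming rule but is a recombination protein and no subunit. Only probe sets brighter than the array median on 9 or more of the 27 arrays were tested, and 39 probe sets for 32 genes met this. Those not tested were Psmc3ip, with a median intensity of 3.5 in Dex, 1.7 in Veh and 4.5 in Con, the ATPase Psmc4 (10.7 in Dex, 10.2 in Veh and 5.6 in Con) and the base scaffold Psmd2 (12.6 in Dex, 11.3 in Veh and 9.1 in Con). They were too dim on this array to be followed. A further 3 probe sets, of Psmb1, Psmb4 and Psmc5, were dim too, but each of these genes had another that was tested. Where a gene had several, the brightest one on average (mean log2 intensity) was used for the gene. Of the 32, 25 had a plain probe set, 5 (Psma3, Psmb4, Psmb7, Psmc3 and Psmd12) one with the suffix Affymetrix gives to probes shared within a sequence family, and Psmb5 and Psmd9 1 each with the suffixes for shared probes and for relaxed design rules.

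The deposited intensities had been scaled to a common trimmed mean, and the median intensity of an array ranged from 17.6 to 33.3. The hepatocyte genes Alb, Apoa1, Ttr, Tat and Cps1 lay at or above percentile 97.45 of every array. Any 2 arrays had a Spearman correlation of 0.793 to 0.937, and none were copies of each other. For beta-actin, the signal of the 3′ control probes over that of the 5′ ones, a measure that is larger in degraded RNA, had a log2 value of 0.886 ± 0.169 in Dex, 1.27 ± 0.318 in Veh and 0.947 ± 0.243 in Con (SD, n = 9 each). A pair of subgroups stood apart in ways that touch the results below: Veh 2 and Veh 7 had immunoproteasome levels far above the other Veh mice, and Dex 1, 2 and 3 had stood apart from the other Dex mice on glucocorticoid-induced genes in an earlier analysis of these data. Results for the members are given with and without these mice where they change. All changes are on the log2 scale, first group minus second, with standard errors from 1 limma fit of group means to all 27 arrays and p-values adjusted (Benjamini-Hochberg) over all 6784 tested probe sets. An adjusted p under 0.05 is called passing the test.

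The 5 members that passed the test in at least 1 comparison were Psmb6, Psmb3, Psmd6, Psmd14 and Psmc6. The 5 did not all move one way. Their promoter windows are shown first, because factors known to control proteasome genes bind there. Each line holds the 250 bases before the annotated start (RefSeq, GRCm38.p6), 5′ to 3′ on the strand of the gene. Capitals mark 3 motifs searched on both strands: TGACNNNGC, the core of the antioxidant response element that Nfe2l1 and Nfe2l2 bind, CCAAT, the box bound by the factor NF-Y, and CTTCCG, the core of sites for ETS family factors (CGGAAG when read on the other strand). The windows lie at chr11:70525107-70525356 (+) for Psmb6, chr11:97703184-97703433 (+) for Psmb3, chr14:14120946-14121195 (-) for Psmd6, chr2:61711444-61711693 (+) for Psmd14 and chr14:45329574-45329823 (+) for Psmc6.
Psmb6: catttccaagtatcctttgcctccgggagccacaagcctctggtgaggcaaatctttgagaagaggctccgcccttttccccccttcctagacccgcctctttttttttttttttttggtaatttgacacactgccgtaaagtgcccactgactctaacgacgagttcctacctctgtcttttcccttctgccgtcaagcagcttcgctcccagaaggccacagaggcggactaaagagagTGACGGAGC
Psmb3: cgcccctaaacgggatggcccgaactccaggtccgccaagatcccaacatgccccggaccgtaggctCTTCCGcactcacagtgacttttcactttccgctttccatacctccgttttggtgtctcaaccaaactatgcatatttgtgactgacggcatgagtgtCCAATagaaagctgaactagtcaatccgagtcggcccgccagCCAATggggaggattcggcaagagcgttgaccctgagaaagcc
Psmd6: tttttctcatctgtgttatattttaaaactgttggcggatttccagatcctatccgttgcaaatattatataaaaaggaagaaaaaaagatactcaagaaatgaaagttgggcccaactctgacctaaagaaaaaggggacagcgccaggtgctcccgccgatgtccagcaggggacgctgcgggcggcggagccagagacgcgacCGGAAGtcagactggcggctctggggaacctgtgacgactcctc
Psmd14: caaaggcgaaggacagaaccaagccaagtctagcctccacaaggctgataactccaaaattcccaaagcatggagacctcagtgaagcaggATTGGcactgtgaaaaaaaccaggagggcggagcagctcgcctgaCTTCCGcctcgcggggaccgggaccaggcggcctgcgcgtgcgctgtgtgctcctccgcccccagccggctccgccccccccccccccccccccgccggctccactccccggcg
Psmc6: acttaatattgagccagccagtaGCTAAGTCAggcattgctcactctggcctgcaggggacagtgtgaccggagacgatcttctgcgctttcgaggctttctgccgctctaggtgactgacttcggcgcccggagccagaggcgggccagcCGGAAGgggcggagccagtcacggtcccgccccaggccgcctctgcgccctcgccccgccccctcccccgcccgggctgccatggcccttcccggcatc

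In Psmb6 the antioxidant core starts 9 bases before the start of the gene. In Psmc6 it lies at -227 on the opposite strand, with an ETS core at -99. Psmb3 holds an ETS core at -183 and CCAAT at -85 and -43, Psmd14 a CCAAT at -159 and an ETS core at -114, and Psmd6 an ETS core at -44. No match overlapped another in these 5 windows. The reference table had promoters for 29 of the 35 genes, Psmc3ip included, which held CTTCCG and CCAAT. A member gene was counted when any of its promoters matched (31 promoters for the 29 genes). The share over all promoters counts each promoter, so the units differ. CTTCCG was found in 16 of the 29 (55.2%), against 13.6% of all 32851 promoters of the same length, CCAAT in 12 (41.4%, against 33.8%) and TGACNNNGC in 5 (17.2%, against 10.2%). The median GC content of the windows was 54.8% for the members and 52.4% for all promoters. The 2 members that were higher (Psmb6, Psmb3) shared none of the 3 motifs, and the 3 that were lower (Psmd6, Psmd14, Psmc6) each held the ETS core, which Psmb3 held too. A match describes the letters of a window and not a bound site, and a link between motif and direction was not tested.

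Between Dex and Veh livers, no constitutive member passed the test. That is 0 of 32, where 0.231% of all 5200 genes tested were called (12 genes, 0.0577% higher and 0.173% lower). No member had ranges that did not overlap, which 0.0192% of genes had. At an unadjusted p under 0.05, 2 members were found (Psmd9 and Psmd11), against 15.7% of all genes, and the lowest adjusted p among the members was 0.204. The median change over members was -0.05, and that over all tested probe sets -0.03. Changes ran from -0.56 (Psmd11, a lid subunit) to 0.52 (Psmd9, an assembly chaperone), and 10 were positive and 22 negative. The 95% interval lay within 1 log2 unit on either side of 0 for 31 of the 32, the exception being Psmd11, whose interval reached 1.12 below. It lay within 0.5 for 20.

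**Figure D1:**
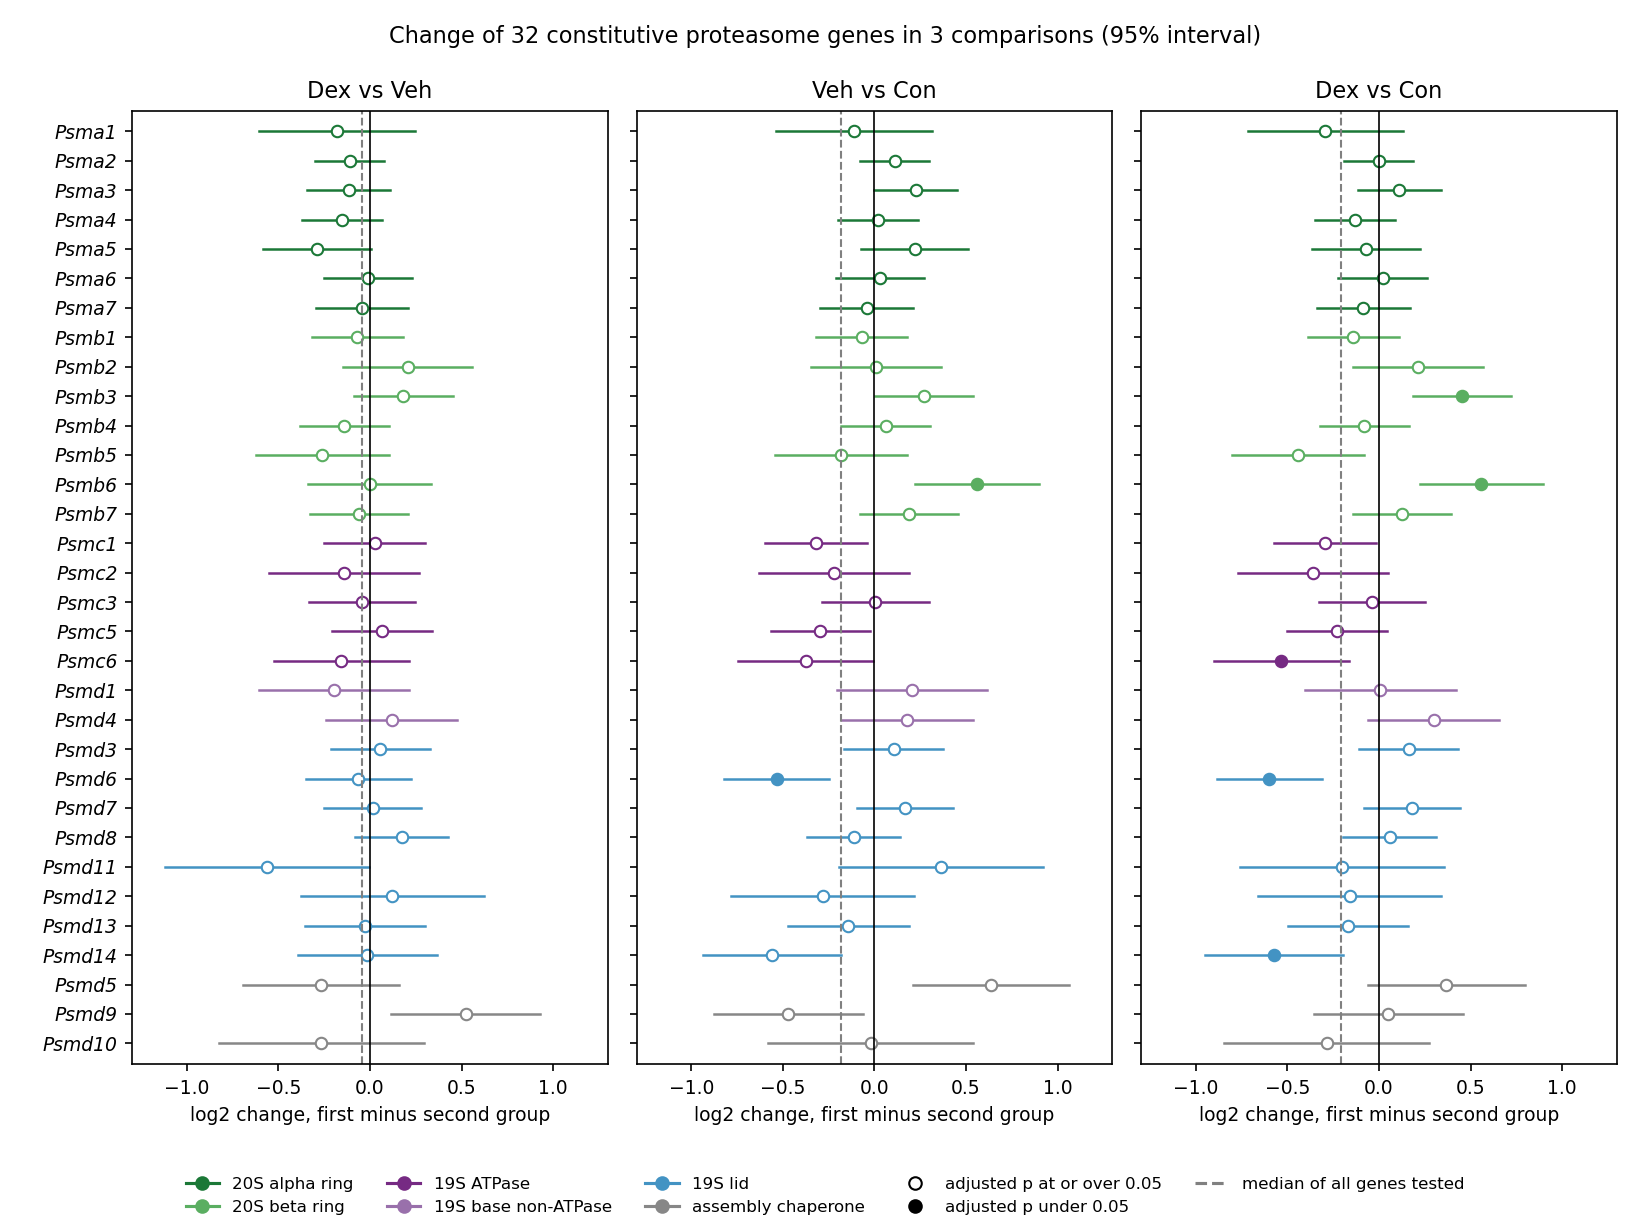
Log2 change (x axis, first minus second group) of the 32 tested constitutive proteasome genes (y axis, ordered and coloured by role) with its 95% interval, in 3 panels, 1 per comparison; filled points have an adjusted p under 0.05 and the dashed line is the median of all genes tested. No point is filled in the first panel, Psmb6 and Psmd6 are filled in the second, and Psmb3, Psmb6, Psmc6, Psmd6 and Psmd14 in the third.

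Both members with an unadjusted p under 0.05 between Dex and Veh had wide spreads. Psmd11 had intensities of 336.8 to 1584.2 in Dex (median 710.1), against 603.4 to 2638.2 in Veh (median 907.5) and 466.8 to 1271.6 in Con (median 674.5). The groups overlapped, and Veh 7 was far above the other Veh mice. Its change was -0.56 ± 0.27 (limma adjusted p = 0.322), and its 2 other tested probe sets gave -0.39 ± 0.22 and 0.12 ± 0.26. Psmd9, a chaperone of the ATPase ring, read 93.2 to 401.2 in Dex (median 175.6), against 91.3 to 174.3 in Veh (median 127) and 135.6 to 207.6 in Con (median 186.5). In Veh, 9 of 9 mice were under the median of Con, and the 3 ranges overlapped. Psmd9 differed by 0.52 ± 0.20 between Dex and Veh (limma adjusted p = 0.204) and by -0.47 ± 0.20 between Veh and Con (adjusted p = 0.149). The change between Dex and Con was 0.05 ± 0.20 (adjusted p = 0.889).

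The alpha subunits, which form the outer rings and the gate of the core, had the 4 smallest spreads of all members (Psma2, Psma4, Psma3 and Psma6). All 7 were tested, and none passed in any comparison. Psma2 read 474.2 to 609.5 in Dex (median 527.9), 533.6 to 651.6 in Veh (median 588.3) and 453.2 to 640.1 in Con (median 538.7), a pooled SD of 0.129 on the log2 scale. The 7 changes between Dex and Veh were all negative, from -0.29 to -0.01 with a median of -0.12. Psma5 changed by -0.29 ± 0.14 there (limma adjusted p = 0.335), with 234.9 to 495.4 in Dex (median 341.6), against 332 to 717.7 in Veh (median 408.7) and 309.3 to 511.3 in Con (median 371.3). The ranges overlapped in part: 3 Dex mice lay below the lowest Veh mouse, and Veh 7 lay above every Dex and Con mouse. Psma3 had the smallest p of the ring between Veh and Con (0.23 ± 0.11, adjusted p = 0.216) and Psma1 between Dex and Con (-0.29 ± 0.21, adjusted p = 0.341). Psma3 read 908.4 to 1903.1 in Dex (median 1248.9) and 1095.2 to 1677.7 in Veh (median 1385.6), against 1025.6 to 1396.3 in Con (median 1145.7). Psma1 read 44.7 to 120 in Dex (median 66.3), against 75.9 to 116.3 in Con (median 85.8).

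In the beta ring, Psmb6 and Psmb3 were higher than in Con, and the other 5 did not pass. Psmb6 carries the caspase-like cutting site. Its intensity was 324.3 to 928.2 in Dex (median 535) and 346.4 to 780.7 in Veh (median 573.2), against 323.7 to 479.2 in Con (median 386.4). In Dex and in Veh alike, 8 of 9 mice lay above the Con median, and 1 mouse of each group fell within the lower Con values. The rise was 0.56 ± 0.16 in Dex vs Con (limma adjusted p = 0.0214) and 0.56 ± 0.16 in Veh vs Con (adjusted p = 0.0494). The Veh vs Con call was kept in 8 of 27 fits that left out 1 mouse (adjusted p 0.025 to 0.106), and the Dex vs Con call in 26, the exception being Dex 4 (adjusted p = 0.05003). Between Dex and Veh the change was -0.00 ± 0.16 (adjusted p = 0.999). Psmb3, a structural beta subunit, read 760.6 to 1645.2 in Dex (median 1289.6), 709.3 to 1431.1 in Veh (median 1181.1) and 815.6 to 1083.2 in Con (median 959.1). It rose by 0.45 ± 0.13 in Dex vs Con (adjusted p = 0.0195, 8 of 9 mice above the Con median). A single Dex mouse and a single Veh mouse lay below every Con mouse. Its change was 0.27 ± 0.13 in Veh vs Con (adjusted p = 0.208) and 0.18 ± 0.13 in Dex vs Veh (adjusted p = 0.510).

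The other cutting subunits did not pass with all mice in the fit. Psmb5, the chymotrypsin-like one, had 160 to 380.5 in Dex (median 188.5), 136.7 to 332.9 in Veh (median 253.3) and 182.8 to 342.6 in Con (median 297.5), a change of -0.44 ± 0.18 in Dex vs Con (limma adjusted p = 0.0830). Dex 6 was far above the other Dex mice. Without Dex 6 the change was -0.56 and passed (limma adjusted p = 0.0178), as it did without Con 5 (-0.52, adjusted p = 0.0456). The second probe set of Psmb5 ran the other way in the same comparison (0.29 ± 0.22, adjusted p = 0.363) and in Dex vs Veh, where it gave 0.52 ± 0.22 (adjusted p = 0.239) against -0.26 ± 0.18. A direction for Psmb5 between Dex and either group therefore depends on the probe set. Psmb7, the trypsin-like subunit, read 231.6 to 415.7 in Dex (median 337.9), 261.6 to 426 in Veh (median 345.3) and 242.7 to 385.3 in Con (median 298.6), with changes of -0.06 in Dex vs Veh, 0.13 in Dex vs Con and 0.19 in Veh vs Con. The 3 groups covered each other.

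Psmb1, a structural neighbour of the cutting subunits, gave a second disagreement. Its brighter probe set changed by -0.07 ± 0.12 in Veh vs Con (limma adjusted p = 0.746), while its dimmer one read 76.9 to 145.2 in Veh (median 96.2), against 132.1 to 198.7 in Con (median 168.3), a fall of -0.68 ± 0.17 (adjusted p = 0.0236). In the dimmer one, 9 of 9 Veh mice were under the median of Con. Counting every tested probe set, 3 of the 39 passed in Veh vs Con, where 3.86% of all tested probe sets did.

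**Figure D2:**
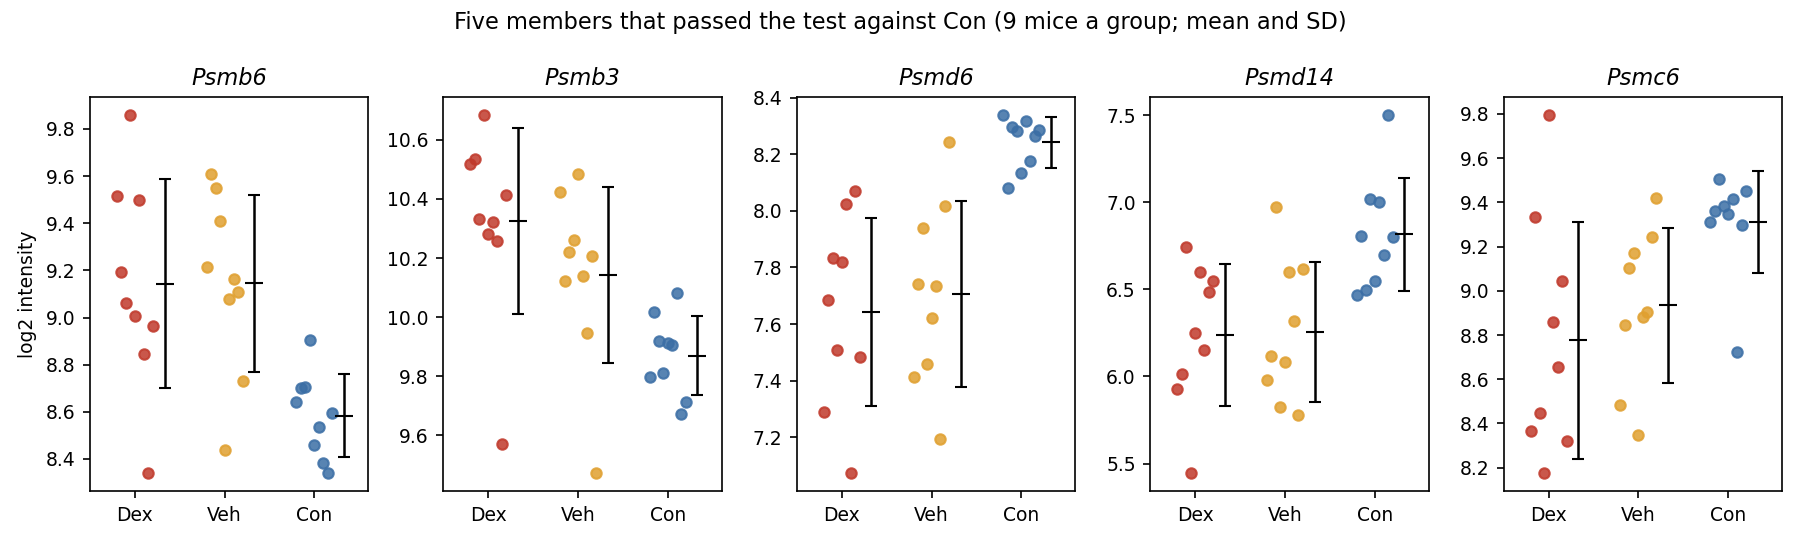
Log2 intensity (y axis, a scale of its own for each gene) of the 5 members that passed the test against Con, with 1 point per mouse for Dex, Veh and Con and the mean and SD of 9 mice beside each group. For Psmb6 and Psmb3, 8 of 9 Dex mice lie above the Con median, and all Dex mice lie below all Con mice for Psmd6.

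Between Veh and Con, 2 of the 32 members passed, Psmb6 higher and Psmd6 lower, against 3.56% of all genes (1.21% higher and 2.35% lower). No member had separate ranges, as 0.385% of genes did. At an unadjusted p under 0.05 there were 9, against 23% of all genes. The members' median change was 0.01, and that of all tested probe sets -0.19. Between Dex and Con 5 of 32 passed, 2 higher (background 3.1% of genes) and 3 lower (background 13.8%), against 16.9% of all genes called. The members' median change was -0.08, and that of all tested probe sets -0.20. Both shares of members are near their backgrounds. The comparisons share mice: the Con mice serve both of these, so the recurrence of Psmb6 and Psmd6 is not a second observation.

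With the brightest probe set of each gene, which leaves out the dimmer one of Psmb1 above, the 3 genes that fell against Con were in the 19S particle. Psmd6 is a lid subunit that helps to hold the lid together. It read 134.6 to 268.6 in Dex (median 205.9) and 146.4 to 303.2 in Veh (median 213), against 271 to 323.6 in Con (median 311). The Dex and Con ranges did not overlap, which held for 0.904% of all genes in that comparison and for no other member. The highest Veh mouse reached into the Con range. Psmd6 fell by 0.60 ± 0.14 in Dex vs Con (limma adjusted p = 0.00606, lower than the Con median in 9 of 9 mice) and by 0.53 ± 0.14 in Veh vs Con (adjusted p = 0.0326, 9 of 9). Leaving out 1 mouse kept the first call in 27 of 27 fits and the second in 16 (adjusted p 0.0107 to 0.0647). Dex and Veh differed by -0.06 ± 0.14 (adjusted p = 0.852).

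Psmd14, the deubiquitinase of the lid, read 43.5 to 107 in Dex (median 76.1) and 54.9 to 125.4 in Veh (median 69.5), against 88.4 to 181 in Con (median 111.5). Every Dex mouse lay below the Con median, though the ranges overlapped. The fall was -0.57 ± 0.19 in Dex vs Con (limma adjusted p = 0.0334), while -0.56 ± 0.19 in Veh vs Con did not pass (adjusted p = 0.0748). Psmc6, an ATPase of the base, read 288.8 to 887.8 in Dex (median 403.2) and 326.2 to 685.3 in Veh (median 479.6), against 423 to 727.5 in Con (median 657.5). A single Dex mouse was above every Con mouse and the other 8 were below the Con median. Psmc6 fell by 0.53 ± 0.18 in Dex vs Con (adjusted p = 0.0410), and -0.38 ± 0.18 in Veh vs Con did not pass (adjusted p = 0.204).

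The rest of the 19S particle did not pass in any comparison. All 5 tested ATPases had negative changes in Dex vs Con, from -0.53 (Psmc6) to -0.04 (Psmc3), with a median of -0.29. The median of all tested probe sets in that comparison was -0.20. Psmc1 was the ATPase with the smallest p in Veh vs Con, at 149.9 to 255.1 in Veh (median 184), against 161.2 to 302.9 in Con (median 236.4) and a change of -0.32 ± 0.14 (limma adjusted p = 0.153). Of the base subunits, the ubiquitin receptor Psmd4 changed by 0.30 ± 0.18 in Dex vs Con (adjusted p = 0.244) and the scaffold Psmd1 by 0.21 ± 0.20 in Veh vs Con (adjusted p = 0.546). Lid changes in Dex vs Con ran from -0.60 to 0.18, with 3 positive (Psmd3, Psmd7 and Psmd8) and 5 negative. The chaperone Psmd5 read 170.2 to 438.3 in Veh (median 270.5), against 113.3 to 254.7 in Con (median 152.2). The change was positive in 9 of 9 Veh mice against the Con median, and its size of 0.64 ± 0.21 did not pass (adjusted p = 0.0736).

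Setting core against cap in Dex vs Con, 2 of 14 core genes were higher and 0 lower, while 0 of 15 genes of the 19S particle were higher and 3 lower, where 3.1% of all genes were higher and 13.8% lower. The median change was -0.04 for the core and -0.17 for the particle, beside -0.20 for all tested probe sets. Relative to the median probe set these are 0.16 and 0.03. The difference between core and particle was not tested. In single mice, the median over the 15 particle genes, relative to the Con mean, was -0.45 to 0.35 in Dex (median -0.17) and -0.22 to 0.11 in Veh (median -0.14), against -0.14 to 0.10 in Con (median 0.02). The median over the 14 core genes was -0.26 to 0.42 in Dex, -0.02 to 0.23 in Veh and -0.14 to 0.13 in Con. All these ranges overlapped.

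Calls against Con moved with the scaling and with single mice. Leaving out 1 mouse at a time, 2 (without Dex 4) to 6 (without Dex 6 or Dex 8) members passed in Dex vs Con and 0 to 4 in Veh vs Con. With each array divided by its own median, where the median change of all tested probe sets was 0.09 for Veh over Con and 0.0037 for Dex over Con (instead of -0.19 and -0.20), Psmb6 was the 1 member that passed in Dex vs Con and none passed in Veh vs Con. Relative to the median probe set, Psmb6 was 0.76 and Psmb3 0.65 higher in Dex than in Con, and Psmd6 was -0.40, Psmd14 -0.38 and Psmc6 -0.33. The split of 2 higher and 3 lower in Dex vs Con became 1 and 2 with quantile normalization and 1 and 0 with median scaling. Without Dex 1, 2 and 3, only Psmd6 passed in Dex vs Con, with 5.97% of all probe sets called. Without Veh 2 and Veh 7 none passed in Veh vs Con, with 1.02% of all probe sets called. The beta-actin ratio was higher on average in Veh than in Con (values above), and with it as a covariate none passed in Veh vs Con either. Its part in the result was not tested further. In liver RNA as a whole, fewer cells that express a gene and less RNA per cell cannot be told apart.

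Spread among mice was smaller for the members than for genes in general. The median SD of a member was 0.353 in Dex, 0.300 in Veh and 0.224 in Con, against 0.551, 0.452 and 0.361 over all genes in the same order. The members' probe sets were also brighter, with a median log2 intensity of 8.34 against 6.26, and the part of brightness in the smaller SD was not tested. Psmd11 and Psmd10 varied most, with pooled SDs of 0.628 and 0.579. The median absolute change of members was 0.12 in Dex vs Veh (0.24 for all genes), 0.18 in Dex vs Con (0.33) and 0.19 in Veh vs Con (0.28).

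Members moved together only weakly from mouse to mouse. After the group means were taken out, the median Pearson correlation over the 496 pairs of members was 0.11 across 27 mice, and 0.05 over all pairs of genes. Pairs within the 19S particle had a median of 0.19 and pairs within the core 0.09. The highest pair was Psma1 with Psmd14 (r = 0.78) and the lowest Psmd9 with Psmd13 (r = -0.64). The 3 pairs of immunoproteasome genes had a median of 0.78, and immunoproteasome genes against core members 0.01. These are descriptions: all pairs share the arrays and their scaling, and Veh 2 and Veh 7 are among them.

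The immunoproteasome genes were measured on the same arrays, and they reached high levels in Veh 2 and Veh 7. Psmb8 read 107 to 226.8 in Dex (median 127.5), against 176.6 to 1573.5 in Veh (median 286.1) and 108.9 to 258.4 in Con (median 225.6). Every Dex mouse lay below the Veh median, with a fall of -1.32 ± 0.29 (limma adjusted p = 0.0440). Psmb9 (-1.09 ± 0.42, adjusted p = 0.205) and Psmb10 (-0.59 ± 0.30, adjusted p = 0.347) did not pass in that comparison. Psme1, a subunit of the interferon-induced 11S cap, fell by 0.83 ± 0.17 in Dex vs Veh (adjusted p = 0.0308) and rose by 0.73 ± 0.17 in Veh vs Con (adjusted p = 0.0183). Without Veh 2 and Veh 7, the change between Dex and Veh was -0.84 ± 0.19 for Psmb8 (adjusted p = 0.0725) and -0.62 ± 0.15 for Psme1 (adjusted p = 0.0763), and neither passed. In Dex vs Veh, Psmb9 was then -0.38 ± 0.26 (adjusted p = 0.474) and Psmb10 -0.12 ± 0.19 (adjusted p = 0.778). Psme1 was then 0.52 ± 0.15 in Veh vs Con (adjusted p = 0.0794). The Dex vs Con change of Psmb8 involves no Veh mouse and was -0.58 with and without Veh 2 and Veh 7. Only its standard error, which draws on the spread in all 3 groups, went from 0.29 to 0.18. The limma adjusted p went with it from 0.173 to 0.0261, so this is no further change in Dex or Con.

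**Figure D3:**
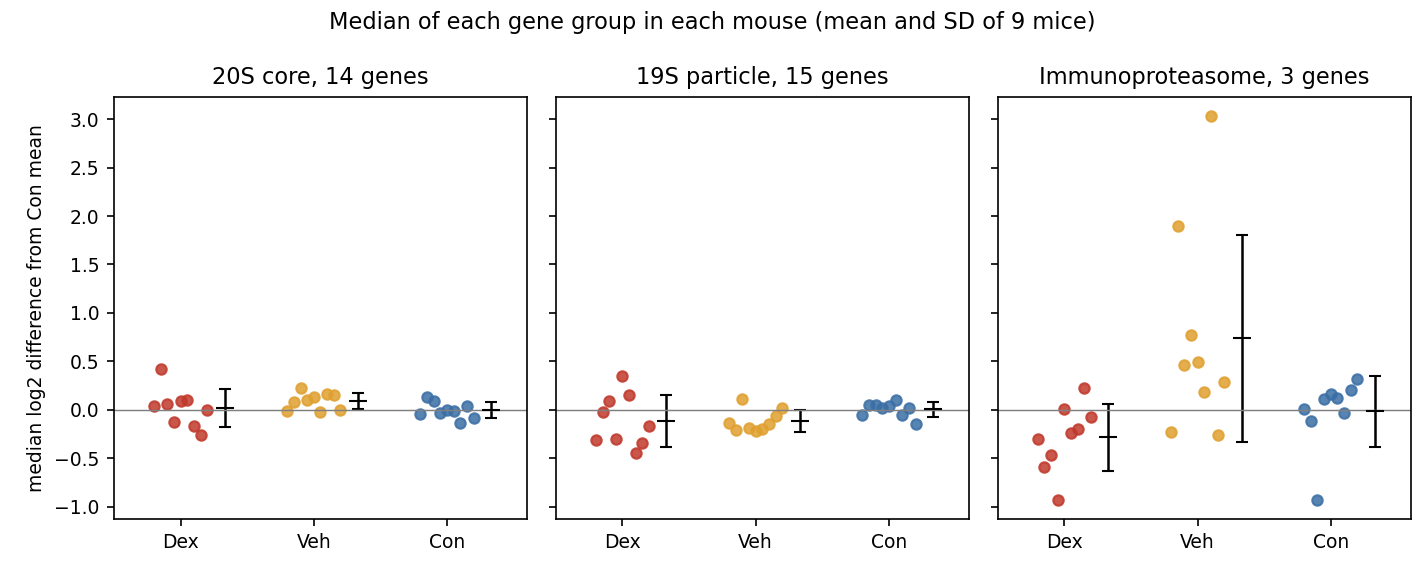
Median log2 difference from the Con mean (y axis) over the genes of the 20S core, the 19S particle and the immunoproteasome in each mouse (points) for Dex, Veh and Con, with the mean and SD of 9 mice. The constitutive medians stay between -0.45 and 0.42, while the immunoproteasome median reaches 1.89 in Veh 2 and 3.03 in Veh 7.

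Each inducible cutting subunit was then set against the constitutive one it replaces, as the log2 difference within an array, which 1 scaling factor per array cannot change. The value of a pair depends on both probe sets and has no meaning alone, so only its difference between groups was tested. Two-sided exact permutation tests over all 48620 splits were used, with adjustment over 9 tests. The difference between groups depends on the probe sets too. The brightest one stood for each gene. The second probe set of Psmb5, at 0.52 ± 0.22 in Dex vs Veh against -0.26 ± 0.18 for the one used, entered no pair. None of the 9 passed. Psmb8 minus Psmb5 was -1.58 to 0.27 in Dex (median -0.58), -0.75 to 3.52 in Veh (median -0.02) and -1.54 to 0.34 in Con (median -0.42). The difference was -1.06 in Dex vs Veh (exact permutation p = 0.0269, adjusted p = 0.148, lower than the Veh median in 7 of 9 mice) and 0.92 in Veh vs Con (adjusted p = 0.174 by the same exact test). Without Veh 2 and Veh 7 it was -0.42 in Dex vs Veh (exact adjusted p = 0.534, with 0.148 to 0.534 over its 8 alternatives). Psmb9 minus Psmb6 differed by -0.78 in Dex vs Con (exact p = 0.0328, adjusted p = 0.148, 8 of 9 mice below the Con median) and by -1.09 in Dex vs Veh (exact adjusted p = 0.174). Psmb10 minus Psmb7 differed by -0.53 in Dex vs Veh, -0.08 in Dex vs Con and 0.45 in Veh vs Con, with a lowest exact adjusted p of 0.450.

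**Figure D4:**
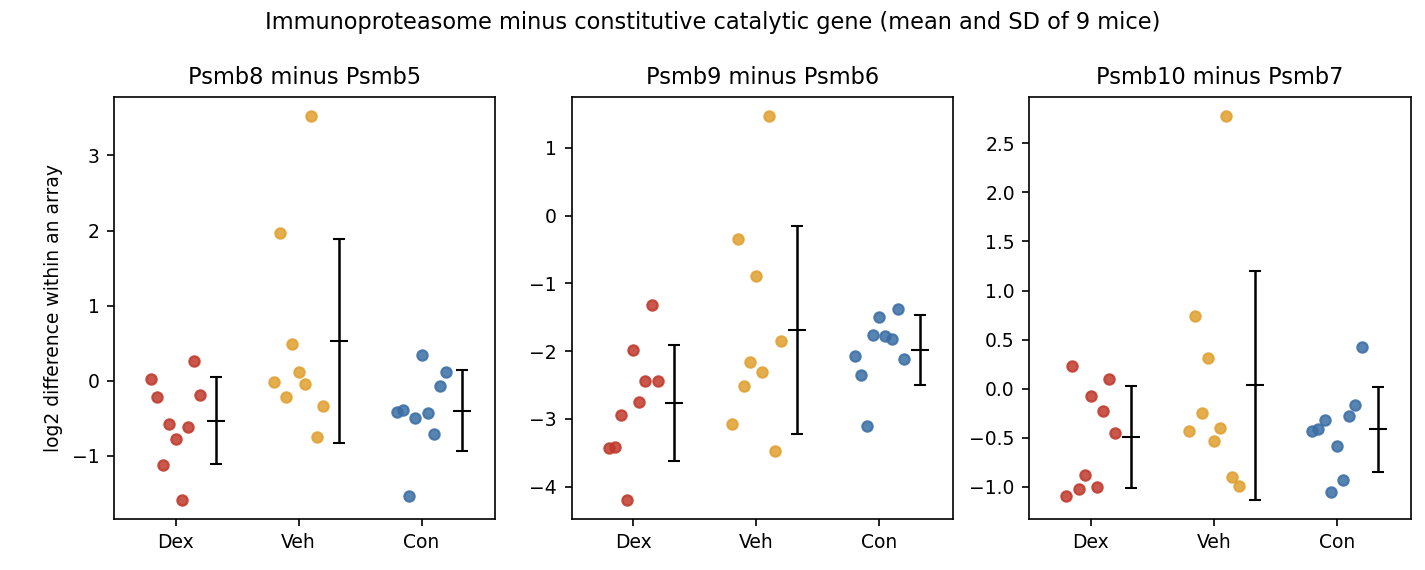
Log2 intensity of the immunoproteasome gene minus that of the constitutive gene it replaces (y axis, within an array) in each mouse of Dex, Veh and Con, with the mean and SD of 9 mice. Veh 7 is the highest point in all 3 panels, at 3.52, 1.47 and 2.78, and the ranges of the 3 groups overlap.

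Markers of other cell types were read beside these genes. Of 14 macrophage markers, 12 were tested, and all 12 had a negative change in Dex vs Veh, with a median of -0.43 and none passing. Over all 5200 genes, 2915 were negative there, with a median of -0.05, and 0.231% passed. In Dex vs Con 10 of the 12 were negative and 3 passed, with a median of -0.61. Over all genes, 3529 of 5200 were negative in that comparison, with a median of -0.21, and 16.9% passed (3.1% higher and 13.8% lower). The summed intensity of the macrophage markers was 697.6 to 1806.6 in Dex and 1038.2 to 3490.6 in Veh, and 1133.7 to 2115.7 in Con. The markers Marco and Vsig4 were not tested. Of the hepatocyte list, all 5 tested genes had a positive change in Dex vs Con, 4 of them passed, and the median was 0.67. Over all genes, 1671 of 5200 had a positive change there. The other lists had few markers to test. Of 9 T and NK cell markers, 8 had a single-symbol probe set on the array and 1 was bright enough to test. Of 4 B cell markers 3 had one and all 3 were tested, of 4 red cell markers 2 had one and both were tested, and of 7 exocrine pancreas markers 4 had one and 3 were tested. A red cell gene passed in Dex vs Con, and none of these passed in the other comparisons. The part of these cell types in the member changes was not tested.

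Among other genes of the pathway, 25 were on the array and 23 tested. They were activators, assembly chaperones, regulators and shuttling factors, and the 3 inducible genes. In Dex vs Veh 0 were higher and 2 lower (Psmb8 and Psme1), against 0.231% of all genes called. In Veh vs Con 1 was higher (Psme1) and 1 lower (Psme4), against 3.56%. In Dex vs Con 1 was higher (background 3.1% of genes) and 8 lower (background 13.8%). The median change was -0.06 in Dex vs Veh, -0.22 in Dex vs Con and 0.0016 in Veh vs Con. Psme4, which encodes the activator PA200, read 48.5 to 128.1 in Dex (median 73.4) and 63.7 to 161.7 in Veh (median 126.2), against 140.8 to 254.4 in Con (median 182.3). No Dex mouse reached the lowest Con mouse, and the fall was -1.18 ± 0.19 in Dex vs Con (limma adjusted p = 3.21e-04) and -0.66 ± 0.19 in Veh vs Con (adjusted p = 0.0435).

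The other 7 falls in Dex vs Con were all between 0.5 and 1 log2 unit. They were the activator Psme3 (-0.77 ± 0.26), the assembly chaperone Psmg2 (-0.92 ± 0.28), the ubiquitin shuttles Rad23b (-0.83 ± 0.22) and Ubqln1 (-0.64 ± 0.19), the proteasome-bound deubiquitinase Usp14 (-0.79 ± 0.24), the proteasome adaptor Ecpas (-0.71 ± 0.23) and the factor Nfe2l2 (-0.59 ± 0.19), with limma adjusted p between 0.0118 and 0.0399. Relative to the median probe set, which was at -0.20 in that comparison, these 7 falls ran from -0.72 (Psmg2) to -0.39 (Nfe2l2). Psmg2 and Usp14 were dim, with median intensities of 21.5 and 34.5 in Dex and 42.4 and 48.8 in Con. Second probe sets of Rad23b and Ubqln1 gave -0.26 ± 0.21 and -0.24 ± 0.22 and did not pass. With the probe set that passed, Rad23b read 66.8, 109.5 and 126.5 in Dex 1, 2 and 3. The other Dex mice read 186.9 to 319.8, and the Con mice 251.2 to 448.5. The part of Dex 1, 2 and 3 in the 7 falls was not tested. Akirin2, which carries proteasomes into the nucleus, gave 0.58 ± 0.18 with one probe set (adjusted p = 0.0270) and -0.89 ± 0.18 with another (adjusted p = 0.0019), so it has no settled direction. Nfe2l1, the factor known to drive the constitutive subunits, did not pass (0.10 ± 0.12 in Dex vs Con, adjusted p = 0.598), nor did the core maturation factor Pomp (-0.03 ± 0.19). A dimmer probe set of Nfe2l1 ran the other way and did not pass either (-0.24 ± 0.22 in Dex vs Con, limma adjusted p = 0.487). In Veh vs Con the dimmer one gave -0.56 ± 0.22 (adjusted p = 0.128), against 0.11 ± 0.12 for the brighter one.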

How the data were processed

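Each of 27 mouse livers was measured on 1 array. The authors deposited 1 linear intensity per probe set and array. Per the labels, Trizol and RNeasy kits were used for the RNA and a Bioanalyzer for its quality. Which software summarised the probes was not given in the sources used here. Trimmed means (2% off each end) lay between 100.09 and 100.15, so the deposited intensities had been scaled per array, and they were not scaled again.

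Intensities were floored at 2.6 (percentile 10 of all positive values) and converted to log2. The 66 control probe sets were left out. A probe set was tested when above its array's median in at least 9 arrays. Of 12488 probe sets, 10855 had 1 symbol, 396 several and 1237 none. All 45 member probe sets matched the reference gene table by gene number. Group means were fitted with limma 3.58.1 in R 4.3.3 (eBayes with a mean trend, two-sided, 24 residual degrees of freedom, Benjamini-Hochberg adjustment over 6784 probe sets). The fit was tested on simulated data with normal noise and the same SD in all groups. That test does not cover the unequal spreads of the groups or the outlying mice. Promoters were searched in Python 3.11.15 with pandas 2.3.3, and figures drawn with matplotlib 3.10.9. Precision is limited by the number of arrays, since intensities carry no depth.

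Members and gene lists were chosen with earlier results of these data known, and nothing here is independent support for a pattern already seen. Genes named in full were those passing in any comparison, the smallest p of each role in each comparison, and Psmb5, Psmb6 and Psmb7 (16 members). The lists were other pathway genes and markers of hepatocytes, macrophages, T and NK cells, B cells, red cells and exocrine pancreas. Alternatives were other scalings, floors, filters, variance models, covariates, tests and left-out mice. Leaving out Veh 2 and Veh 7 was chosen after seeing the data. Same-numbered mice of different groups correlated from -0.195 to 0.187 in their deviations, and the main fit did not pair them. Mice with different numbers were not compared in this way, so these values cannot settle whether the numbers mark pairs.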

Additional observations from a re-analysis of the deposited data

Results flagged for a closer look

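Of 60 checks of a gene or pair within a group of 9 mice, 8 found 1 mouse further from its nearest neighbour than Dixon's critical value allows. Chance marks about 1 in 20 such groups. All values are log2 intensities, or log2 differences for the pair.

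In Dex, Psma3 was highest in Dex 2 at 10.89, Psmb3 lowest in Dex 8 at 9.57 and Psmb5 highest in Dex 6 at 8.57. In Veh, 3 of the 8 came from Veh 7, which was the highest mouse for Psma5 at 9.49, for Psmd11 at 11.37 and for Psmb10 minus Psmb7 at 2.78. In Con, Psmc1 was lowest in Con 4 at 7.33 and Psmc6 lowest in Con 7 at 8.72. Psmb3 and Psmc6 passed the test in Dex vs Con. Psmb3 passed with each of the 27 mice left out in turn, and Psmc6 in 14 of the 27 cases. Psmb5 missed the test there but passed without Dex 6.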

How the results depend on the processing

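Dex vs Veh had 0 constitutive members passing under every alternative run, leaving out each mouse included. In the main fit 0.231% of all genes passed there, so a count of 0 among 32 members does not set them apart. In Veh vs Con, where 2 passed, the count was 0 with quantile normalization, median scaling, no filter, either control ratio as a covariate, or without Veh 2 and Veh 7, 1 without a mean trend, 5 in a fit of the 2 groups and 6 with array weights. Leaving out 1 mouse gave 0 to 4: 0 without Con 1, 3, 6, 7, 8 or 9 or Veh 1, 2, 4 or 7, 1 without Con 2, 4 or 5, Veh 5, 6 or 8, or Dex 3, 5 or 9, and 4 without Veh 9. In Dex vs Con, where 5 passed, it was 3 with quantile normalization, no filter or the exact rank-sum test, and 1 with median scaling or without Dex 1 to 3. Leaving out 1 mouse gave 2 to 6: 3 without Con 4, 6 or 8 or Dex 1, and 2 without Dex 4. With median scaling the members' median change became 0.29 for Veh vs Con and 0.13 for Dex vs Con. The replicate block ended the Dex vs Con call of Psmc6 (adjusted p = 0.0584, over all alternatives 0.0323 to 0.372), which left 4 members passing, and no other call of a member changed. The causes were not tested. Over 14 alternatives, Psmd6 and Psmb6 passed in 13 for Dex vs Con, Psmb3 in 11, Psmd14 in 10 and Psmc6 in 8. In Veh vs Con Psmd6 passed in 8 and Psmb6 in 7. Over 27 fits without 1 mouse, the Dex vs Con call was kept in 27 for Psmb3 and Psmd6, 26 for Psmb6, 21 for Psmd14 and 14 for Psmc6, and the Veh vs Con call in 16 for Psmd6 and 8 for Psmb6. No call reversed.

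Some changes that missed the test turned sign, and not all of them were near 0 in the main fit. Psmd5 had been -0.27 in Dex vs Veh, Psmd11 -0.20 in Dex vs Con and Psmb5 -0.18 in Veh vs Con. The pairs Psmb9 minus Psmb6 and Psmb10 minus Psmb7 had been 0.31 and 0.45 in Veh vs Con. In Dex vs Veh, Psmb6 was 0.022 with quantile normalization, 0.19 and 0.14 with the beta-actin and Gapdh covariates, 0.067 without Veh 2 and Veh 7 and 0.019 with array weights. Psmc1 was -0.052 with median scaling and -0.032 without Veh 2 and Veh 7, Psmb7 0.026 and Psmd14 0.0024 with the Gapdh covariate, Psmd14 0.096 with array weights, and Psmd5 0.0090 without Dex 1 to 3. In Veh vs Con, Psma1 was 0.13 with quantile normalization and 0.17 with median scaling, and Psmb5 0.097 with median scaling. In Dex vs Con, Psma3 was -0.12 and Psmd1 -0.027 with quantile normalization, Psma5 0.13 and Psmd11 0.0018 with median scaling, and Psmd9 -0.052 with array weights. Without Veh 2 and Veh 7, Psmb9 minus Psmb6 was -0.33 and Psmb10 minus Psmb7 -0.042 in Veh vs Con. Leaving out 1 mouse, Dex vs Veh ranged from -0.091 to 0.099 for Psmb6, -0.025 to 0.084 for Psmc1, -0.076 to 0.086 for Psmd14 and -0.13 to 0.0067 for Psmd6. Dex vs Con ranged from -0.12 to 0.086 for Psmd1, -0.094 to 0.17 for Psmd9, -0.13 to 0.0023 for Psma5 and -0.17 to 0.029 for Psmb10 minus Psmb7. Psmb9 minus Psmb6 ranged from -0.088 to 0.53 in Veh vs Con.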
